A study of Homo sapiens with 9 samples.

Results

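Small nucleolar RNA host genes are transcribed as long RNAs whose introns carry small nucleolar RNAs (snoRNAs). The 10 host genes described here were GAS5, SNHG1, SNHG3, SNHG5, SNHG6, SNHG7, SNHG8, SNHG12, SNHG15 and SNHG16, taken by name with their older aliases, and they were 10 of the 19808 genes named on the array. Together they had 18 of the 54675 probe sets. RNA was measured in HT-29, a human colon adenocarcinoma line, after 5 days with 5-aza-deoxycytidine (5-Aza), a cytidine analog that is built into DNA and traps DNA methyltransferases. There were 3 cultures with DMSO vehicle alone (0 µM 5-Aza), 3 with 5 µM 5-Aza and 3 with 10 µM 5-Aza, each measured on 1 Affymetrix U133 Plus 2.0 array. All cultures were of 1 cell line, and with 3 arrays per dose their number limits the precision of every value.

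A host transcript has 2 products. When it is spliced, the introns are trimmed to snoRNAs, of which the C/D box class guides 2′-O-methylation of ribosomal RNA and the H/ACA box class guides pseudouridylation. The 10 genes here are annotated as long noncoding RNAs, and the joined exons of such hosts mostly encode no known protein. These exons are often removed by nonsense-mediated decay. In many such hosts they start with a run of pyrimidines, the 5′ terminal oligopyrimidine (TOP) tract shared with mRNAs of ribosomal proteins. By the snoRNAs that the platform's gene table lists with their probe sets, GAS5, SNHG1, SNHG5, SNHG6 and SNHG16 were 5 hosts of C/D box snoRNAs (21 listed), and SNHG3, SNHG7, SNHG8, SNHG12 and SNHG15 were 5 hosts of H/ACA box snoRNAs (8 listed). The grouping follows that list, and the classes are not pure in RefSeq, where the span of GAS5 also holds the H/ACA box SNORA103 and that of SNHG12 the C/D box SNORD99. Of the 18 probe sets, 17 are listed with a host gene together with its snoRNAs and 1, a GAS5 probe set, with the host gene alone. Whether a probe lies in an exon or an intron was not determined, so a signal is a signal of the host locus.

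The start regions of host genes are shown because the pyrimidine start is what the family is known for. RefSeq promoters (GRCh38.p14) were matched by symbol for 8 of the 10 genes, without SNHG6 and SNHG15. Each sequence below runs from 50 bases before the annotated start to 20 bases after it, and capitals mark the longest run of C and T within 20 bases of the start and, where present, the letters TATAA. SNHG5 lies at chr6:85678714-85678783 on the minus strand, SNHG7 at chr9:136728165-136728234 on the minus strand, SNHG8 at chr4:118278712-118278781 on the plus strand, SNHG12 at chr1:28581854-28581923 on the minus strand, SNHG16 at chr17:76557714-76557783 on the plus strand and GAS5 at chr1:173869026-173869095 on the minus strand.
SNHG5: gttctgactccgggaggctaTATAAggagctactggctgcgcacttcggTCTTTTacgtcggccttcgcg
SNHG7: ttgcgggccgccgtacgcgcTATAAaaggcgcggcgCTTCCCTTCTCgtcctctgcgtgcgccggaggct
SNHG8: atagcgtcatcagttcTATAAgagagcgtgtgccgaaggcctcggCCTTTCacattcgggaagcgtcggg
SNHG12: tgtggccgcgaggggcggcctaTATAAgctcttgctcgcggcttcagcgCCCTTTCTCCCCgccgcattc
SNHG16: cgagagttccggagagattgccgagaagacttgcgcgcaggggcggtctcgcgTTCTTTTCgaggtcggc
GAS5: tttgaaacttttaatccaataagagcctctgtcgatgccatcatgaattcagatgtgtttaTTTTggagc

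A run of at least 6 C or T was present near the start of 7 of the 8 host genes (87.5%), GAS5 being the exception with a run of 4, against 38.8% of the 35108 other promoters in the table and 36.3% of the 13985 promoters of the other tested genes. The run was 12 bases long in SNHG12, 11 in SNHG7 and 8 in SNHG16. The SNHG7 run began at position -14 and the 7-base SNHG1 run at -20 relative to the annotated start. Both ended before that start, so they are not part of an RNA that begins there. The letters TATAA, searched on the sense strand from 50 to 11 bases before the start and not overlapping the runs, were found in SNHG5, SNHG7, SNHG8 and SNHG12, which is 4 of 8 against 4.5% of the other promoters and 3.1% of those of the other tested genes. CpG dinucleotides, the sites of DNA methylation, numbered between 5 and 43 in the 300 bases around the start (median 29.5), against a median of 25.0 in the promoters of the other tested genes and of 14.0 in all other promoters. GAS5 had 5 and SNHG3 had 13, and the remaining host genes in the table had 23 to 43. The start listed for SNHG12 lies 1110 bases inside the gene as RefSeq spans it, while the other 7 starts coincide with the end of the gene. These counts describe letters near annotated starts, and no methylation was measured here. Whether HT-29 cells use these starts was not tested. The short run and the low CpG count of GAS5 thus hold for its annotated start alone.

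Facts of the whole series that touch the results were the following. Signals are log2 values. Of the 10 colon epithelium markers 9 were above the signal floor, the median of the array, on all 9 arrays, CDX2 was below it on all 9, and their summed linear signal was 96773 to 100440 at 0 µM, 67875 to 76250 at 5 µM and 62075 to 70548 at 10 µM. Of the 13 fibroblast, blood cell and endothelium markers, 12 were on the array and 4 were above the floor on all 9 arrays (COL1A1, LUM, CD14 and PECAM1), with summed linear signals of at most 180 for blood cells and 152 for endothelium. The fibroblast sum was 264 to 337 at 0 µM, 1016 to 1074 at 5 µM and 602 to 727 at 10 µM. Both tested fibroblast markers rose at 5 µM and at 10 µM against vehicle, while of 9 tested epithelium markers 5 fell and 1 rose in each. Of all tested genes 13.5% fell and 20.2% rose at 5 µM, and 13.4% fell and 19.8% rose at 10 µM. After quantile normalization (described below) 3 epithelium markers fell and 1 rose at each dose. Of the fibroblast markers 2 then rose at 5 µM and 1 at 10 µM. The part of these markers in the differences of the host genes was not tested. For actin, the 3′ control probe set exceeded the 5′ one, a gap that widens with RNA breakdown or short cDNA, by 2.09 ± 0.19, 2.59 ± 0.10 and 2.98 ± 0.17 (SD, n = 3) at 0, 5 and 10 µM. The 5′ signal of 18S rRNA was 13.45 and 13.60 in replicates 2 and 3 at 10 µM and 11.77 to 12.56 on the other 7 arrays. A gene was tested if it reached the floor on all 3 arrays of at least 1 dose, which held for 11792 genes and for all 10 host genes.

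The first comparison asked what 5 µM 5-Aza did relative to vehicle. Of the 10 host genes 9 fell, where 13.5% of the 11792 tested genes fell at an adjusted p of at most 0.05 (limma, Benjamini-Hochberg over all tested genes). SNHG8, SNHG15, GAS5, SNHG7 and SNHG5 fell more than 2-fold, which 1.36% of the tested genes did, and no host gene rose, where 20.2% of the tested genes did. The median log2 difference of the host genes was -0.85, against 0.04 over all tested genes. All 5 hosts of C/D box snoRNAs fell, with log2 differences between -1.06 and -0.42, and 4 of the 5 hosts of H/ACA box snoRNAs fell, with differences between -1.31 and -0.23. Fewer cells that express a gene and less of its RNA per cell cannot be told apart in bulk RNA.

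SNHG8, host of the H/ACA box snoRNA SNORA24, was the host gene with the largest fall. Its log2 signal was 12.69, 12.87 and 12.77 at 0 µM, 11.40, 11.54 and 11.45 at 5 µM and 11.55, 11.61 and 11.59 at 10 µM. Every array with 5-Aza lay more than 1 log2 unit below every vehicle array, and the arrays of the drug doses were close to each other. The difference at 5 µM was -1.31 ± 0.09 (SE, adjusted p = 2.46e-05), a 2.49-fold fall. Only 0.543% of the tested genes had a lower difference.

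SNHG15, host of SNORA9, had signals of 9.90, 10.12 and 9.86 at 0 µM, 8.85, 8.81 and 8.81 at 5 µM and 9.54, 9.67 and 9.56 at 10 µM. The 5 µM arrays were the lowest and nearly identical, and the 10 µM arrays lay between the other groups without overlap. SNHG15 fell 2.20-fold at 5 µM (log2 difference -1.137 ± 0.098, adjusted p = 8.21e-05).

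GAS5, growth arrest-specific 5, hosts many C/D box snoRNAs and its exonic RNA is known to bind the glucocorticoid receptor as a decoy. Its brightest probe set, 224741_x_at, read 13.51, 13.49 and 13.36 at 0 µM, 12.45, 12.44 and 12.27 at 5 µM and 12.50, 12.76 and 12.60 at 10 µM. All vehicle arrays were above all others. The difference at 5 µM was -1.06 ± 0.11 (adjusted p = 0.000164), a 2.09-fold fall. The letter x in its name marks probes that can also match other transcripts.

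SNHG5, host of SNORD50A and SNORD50B, C/D box snoRNAs known to bind RAS proteins, read 12.65, 12.87 and 12.70 at 0 µM, 11.73, 11.86 and 11.59 at 5 µM and 11.46, 11.46 and 11.59 at 10 µM. The vehicle arrays stood apart from both drug doses, which met at 11.59. Its difference at 5 µM was -1.01 ± 0.11 (adjusted p = 0.000247). SNHG7, host of SNORA17A and SNORA17B, read 9.25, 9.38 and 9.16 at 0 µM, 8.36, 8.24 and 8.12 at 5 µM and 8.02, 8.69 and 8.37 at 10 µM with its brighter probe set. The 10 µM arrays spread around the 5 µM arrays and below the vehicle. SNHG7 fell by 1.02 ± 0.17 on the log2 scale at 5 µM (adjusted p = 0.00200). SNHG5 and SNHG7 were close to the 2-fold limit: without vehicle replicate 2 their differences were -0.95 and -0.96, without 5 µM replicate 3 they were -0.94 and -0.96, and in both cases 3 host genes were past 2-fold.

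The remaining falls at 5 µM were under 2-fold. SNHG1, host of a cluster of C/D box snoRNAs from SNORD22 to SNORD31, had a log2 difference of -0.69 ± 0.10 (adjusted p = 0.00138). SNHG12, host of SNORA16A, SNORA44 and SNORA61, had -0.65 ± 0.12 (adjusted p = 0.00388) with its brightest probe set, while its probe set 228990_at did not fall (0.18 ± 0.20). SNHG6, host of SNORD87, had -0.60 ± 0.10 (adjusted p = 0.00201). SNHG16, host of SNORD1A and SNORD1C, was nearest to the threshold at -0.42 ± 0.14 (adjusted p = 0.0469). Without any 1 of the 6 vehicle and 5 µM arrays its adjusted p was 0.0560 to 0.154, so its call did not hold.

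SNHG3 was the host gene that did not pass. It hosts SNORA73A, an H/ACA box snoRNA known to act in the cleavage of precursor rRNA. Its signal was 8.69, 8.81 and 8.52 at 0 µM, 8.72, 8.38 and 8.24 at 5 µM and 8.98, 8.48 and 8.95 at 10 µM. The 3 doses overlapped. The difference at 5 µM was -0.23 with a 95% interval of -0.62 to 0.17 (adjusted p = 0.352), which leaves room for a fall of the size of SNHG6. All other host genes had 5 µM arrays wholly below the vehicle arrays, a separation that 25.6% of the tested genes also showed in that direction.

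**Figure D1:**
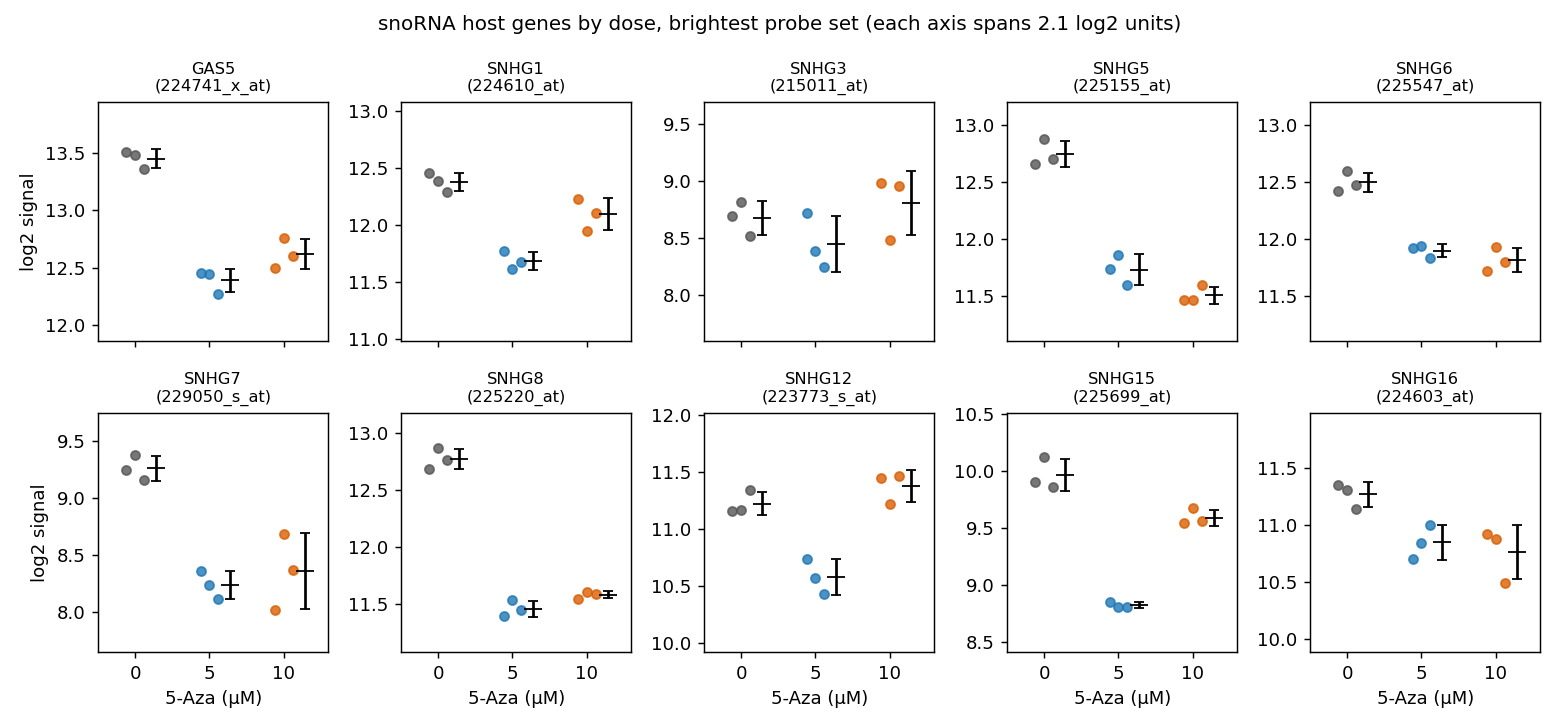
The log2 signal of each host gene's brightest probe set (y axis, 2.1 log2 units in every panel) is shown for 0, 5 and 10 µM 5-Aza (x axis). Points are single arrays and bars are the mean ± SD of 3 arrays. SNHG8 and SNHG5 stay low at 10 µM, SNHG12 and SNHG15 are lowest at 5 µM, and the doses of SNHG3 overlap.

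The brightness of a gene moved with these differences. Ranges were set by the mean over all 9 arrays, so a fall with 5-Aza itself lowered the mean of a gene. SNHG5 and SNHG8 had vehicle means of 12.737 and 12.778, above those of SNHG1 (12.376) and SNHG6 (12.496), yet fell in a lower range. Tested genes with a mean log2 signal of at least 12, 548 in all, had a median difference of -0.25 at 5 µM against vehicle, and 36.5% of them fell. GAS5, SNHG1 and SNHG6 were in that range. The 2496 genes from 10 to 12, which held SNHG5, SNHG8, SNHG12 and SNHG16, had a median of -0.08 and 18.6% fell. The 4255 genes from 8 to 10, with SNHG3, SNHG7 and SNHG15, had a median of 0.02 and 14.9% fell. After quantile normalization, which forces the same distribution on all arrays, 8 of the 10 host genes still fell at 5 µM, where 13.7% of the genes tested in that fit fell, and 3 were past 2-fold, where 1.84% were. The log2 differences were then -1.12 for SNHG8, -1.143 for SNHG15 and -0.77 for GAS5, and SNHG16 no longer passed (adjusted p = 0.103).

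The second comparison asked what the higher dose changed relative to the lower one. SNHG12, SNHG15 and SNHG1 rose at 10 µM relative to 5 µM, which is 3 of 10 host genes where 6.98% of the tested genes rose. No host gene fell, against 8.90% of the tested genes, and none was past 2-fold, where 0.263% of the tested genes rose and 2.08% fell that far. The median log2 difference of the host genes was 0.18, against -0.01 over all tested genes. In this comparison the 10 µM arrays lay wholly above the 5 µM arrays for 5 host genes, GAS5 and SNHG8 besides those called, and for 17.3% of the tested genes.

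SNHG12 read 11.16, 11.17 and 11.34 at 0 µM, 10.74, 10.57 and 10.43 at 5 µM and 11.45, 11.22 and 11.47 at 10 µM. The 10 µM arrays thus overlapped the vehicle arrays and left those of the lower dose. Its difference was 0.80 ± 0.12 (SE, adjusted p = 0.00559), a 1.74-fold rise, and 98.5% of the tested genes had a lower one. With the probe set 223774_at, which stood for SNHG12 when probe sets marked x or s were left out, the difference was 0.39 and did not pass (adjusted p = 0.120). SNHG15 rose 1.70-fold, by 0.77 ± 0.10 on the log2 scale (adjusted p = 0.00376). SNHG1 read 12.23, 11.95 and 12.10 at 10 µM, against 11.77, 11.61 and 11.67 at 5 µM. Its groups did not overlap, and its difference was 0.41 ± 0.10 (adjusted p = 0.0324). The SNHG1 call was lost without vehicle replicate 1 or 2, any 1 of the 5 µM arrays, or 10 µM replicate 1 or 3 (adjusted p up to 0.111).

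The other 7 host genes did not pass between the drug doses. The differences were 0.36 ± 0.17 for SNHG3, 0.23 ± 0.11 for GAS5, 0.12 ± 0.16 for SNHG7, 0.12 ± 0.09 for SNHG8, -0.08 ± 0.10 for SNHG6 and -0.08 ± 0.14 for SNHG16. SNHG5 had the lowest one, -0.23 with a 95% interval of -0.47 to 0.02. The sign of the SNHG7 difference turned to -0.05 without 10 µM replicate 2, and that of SNHG16 to 0.05 without 10 µM replicate 3.

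Against vehicle, 10 µM 5-Aza left 7 of the 10 host genes lower, where 13.4% of the tested genes were lower. SNHG5 and SNHG8 were past 2-fold, which 1.51% of the tested genes were, and none rose, where 19.8% of the tested genes did. This comparison uses the same vehicle arrays as the first and the same 10 µM arrays as the second, so its values are not independent of theirs. The median difference of the host genes was -0.59, against 0.05 over all tested genes, and 8 host genes had all 10 µM arrays below all vehicle arrays, as did 19.1% of the tested genes. Hosts of C/D box snoRNAs had differences between -1.24 and -0.28 with 4 of 5 called, and hosts of H/ACA box snoRNAs between -1.19 and 0.16 with 3 of 5 called. The share of lower genes again differed by brightness. Of tested genes with a mean log2 signal of at least 12 over all 9 arrays, 35.4% were lower, as were 2 of the 3 host genes there. From 10 to 12 the share was 21.2% (3 of 4 host genes), and from 8 to 10 it was 13.8% (2 of 3).

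SNHG5 had the largest difference at 10 µM against vehicle, -1.24 ± 0.11 (SE, adjusted p = 0.000205), a 2.36-fold fall. SNHG8 followed with -1.19 ± 0.09 (adjusted p = 0.000114), and SNHG7 with -0.90 ± 0.17 (adjusted p = 0.00456). GAS5 fell by 0.83 ± 0.11 on the log2 scale with its brightest probe set (adjusted p = 0.000901). SNHG6 read 12.42, 12.59 and 12.47 at 0 µM, 11.92, 11.94 and 11.83 at 5 µM and 11.72, 11.93 and 11.80 at 10 µM. Its drug doses overlapped and lay below the vehicle. SNHG6 fell by 0.68 ± 0.10 (adjusted p = 0.00155).

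Smaller falls at 10 µM were those of SNHG16, which read 10.92, 10.88 and 10.49 at 10 µM, against 11.35, 11.31 and 11.14 at 0 µM (log2 difference -0.51 ± 0.14, adjusted p = 0.0247), and SNHG15 (-0.37 ± 0.10, adjusted p = 0.0204). Both calls rested on single arrays. The SNHG15 call was lost without vehicle replicate 2 (adjusted p = 0.0812) or 10 µM replicate 3 (adjusted p = 0.0649). That of SNHG16 was lost without vehicle replicate 1 (adjusted p = 0.0791), vehicle replicate 2 (adjusted p = 0.0786) or 10 µM replicate 3 (adjusted p = 0.0727). SNHG1 had -0.28 with a 95% interval of -0.52 to -0.05 (adjusted p = 0.0640) and passed without 10 µM replicate 1 (adjusted p = 0.0363). SNHG12 had 0.16 with an interval of -0.11 to 0.43 (adjusted p = 0.336), and SNHG3 had 0.13 with an interval of -0.27 to 0.53 (adjusted p = 0.586).

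**Figure D2:**
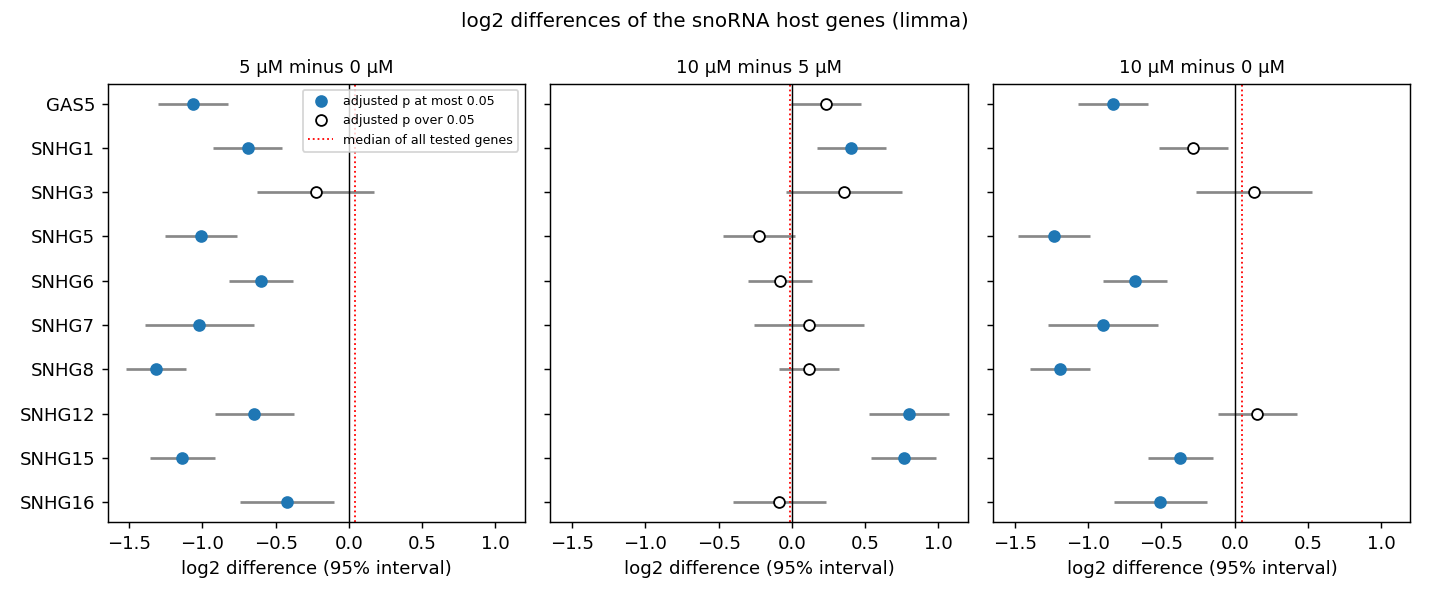
Log2 differences (x axis) of the 10 host genes (rows) for 5 µM minus 0 µM, 10 µM minus 5 µM and 10 µM minus 0 µM, with 95% intervals from limma. Filled points have an adjusted p of at most 0.05 and dotted lines mark the median of all tested genes. The filled points are 9 to the left of 0 in the first panel, 3 to the right in the second and 7 to the left in the third.

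With this actin gap as a covariate, 4 of the 10 host genes fell at 5 µM against vehicle (SNHG8, SNHG15, SNHG5 and GAS5), where 1.23% of the tested genes did, and none passed in the comparisons with 10 µM, where 12 of all tested genes passed against 5 µM and 0 against vehicle (limma). At an unadjusted p of at most 0.05 that fit held SNHG1, SNHG12 and SNHG15 among 1495 genes at 10 µM against 5 µM, and SNHG5 and SNHG8 among 1003 genes at 10 µM against vehicle. The standard errors were larger in that fit. Several estimates without a call were close to those without the covariate, and others were not. At 5 µM against vehicle the estimates were -1.003 ± 0.336 for SNHG7, -0.70 ± 0.24 for SNHG12 and -0.61 ± 0.20 for SNHG6. SNHG1 had -0.51 ± 0.20, in place of -0.69, while SNHG16 had -0.11 ± 0.26 and SNHG3 0.03 ± 0.34. Between the drug doses they were 0.82 ± 0.17 for SNHG15, 0.76 ± 0.21 for SNHG12 and 0.55 ± 0.17 for SNHG1. With the higher dose against vehicle they were -1.33 ± 0.36 for SNHG5, -1.31 ± 0.30 for SNHG8, -0.87 ± 0.54 for SNHG7 and -0.70 ± 0.32 for SNHG6. GAS5 had -0.595 ± 0.336 there in place of -0.83, and SNHG15 -0.25 ± 0.32 in place of -0.37. SNHG1 had 0.04 ± 0.32 in place of -0.28, and SNHG16 had 0.04 ± 0.41. The covariate rose with the dose, so that fit cannot tell them apart. The part of RNA quality in the results was not tested further. Without 10 µM replicates 2 and 3, a choice made after seeing the data, 5 host genes were lower at 10 µM than in vehicle (SNHG5, SNHG7, SNHG8, GAS5 and SNHG6), where 14.1% of the 12166 genes tested in that fit were, SNHG15 (adjusted p = 0.0568) and SNHG16 (adjusted p = 0.128) no longer passed, and the lone 10 µM array was assumed to vary like the other groups.

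**Figure D3:**
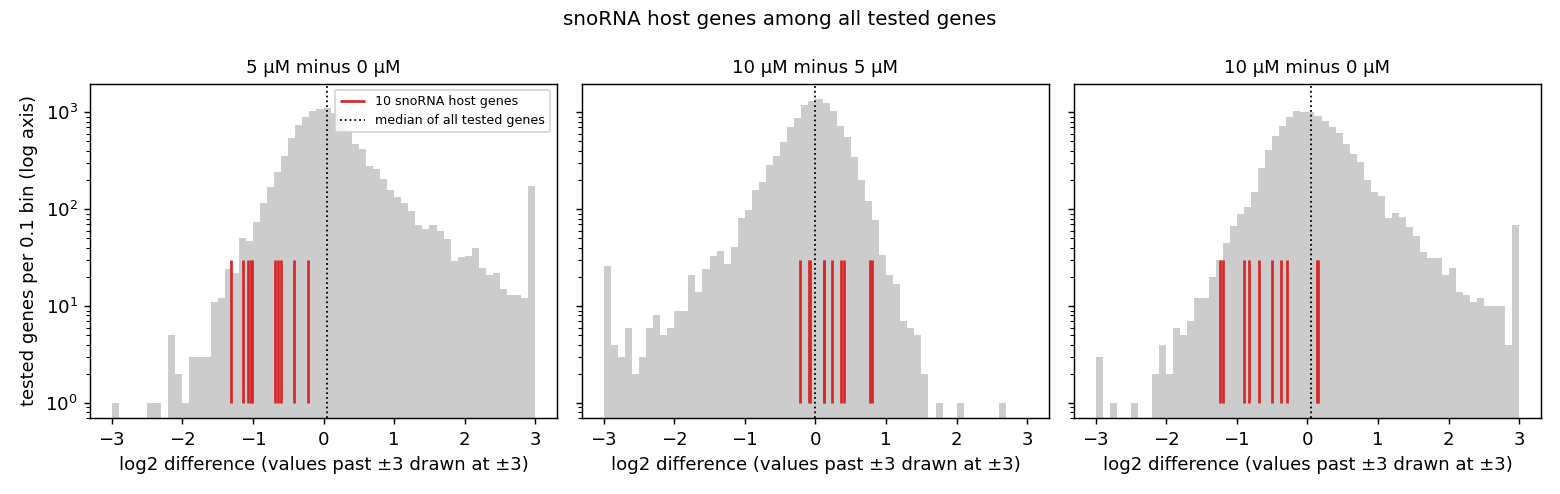
The number of tested genes per 0.1 of log2 difference (grey, log y axis) is plotted against the log2 difference (x axis, values past 3 in either direction drawn at 3) for the 3 comparisons. Red lines mark the 10 host genes and the dotted line marks the median of all 11792 tested genes. At 5 µM against 0 µM all 10 lines lie to the left of the median, and at 10 µM against 5 µM 7 of 10 lie to its right.

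For 4 host genes there was more than 1 probe set, and those of GAS5 and SNHG12 disagreed. Over the 27144 tested probe sets, 9.04% fell at 5 µM against vehicle, 3.25% rose at 10 µM against 5 µM, and at 10 µM against vehicle 10.4% fell and 16.3% rose. The GAS5 probe sets 224741_x_at and 224841_x_at stayed low at 10 µM, with differences from vehicle of -0.83 ± 0.12 (adjusted p = 0.00226) and -0.855 ± 0.132 (adjusted p = 0.00358). The other 2 bright probe sets did not.

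The GAS5 probe set 228238_at read 10.09, 9.87 and 10.32 at 0 µM, 9.56, 9.59 and 9.46 at 5 µM and 10.96, 10.16 and 10.82 at 10 µM. It was lowest at 5 µM, and its 10 µM arrays reached or passed those of the vehicle. It rose by 1.11 ± 0.21 at 10 µM against 5 µM (adjusted p = 0.0188). The GAS5 probe set 227517_s_at read 11.30, 11.20 and 11.40 at 0 µM, 10.97, 10.70 and 10.42 at 5 µM and 11.90, 11.16 and 11.63 at 10 µM. It followed the same course and rose by 0.87 ± 0.21 (adjusted p = 0.0380). Replicate 2 was the lowest 10 µM array for both. At 5 µM against vehicle they had -0.56 ± 0.21 (adjusted p = 0.0856) and -0.60 ± 0.21 (adjusted p = 0.0652). The dim GAS5 probe set 1560402_at, the one listed with GAS5 alone, read 5.93, 5.39 and 5.25 at 0 µM, 5.53, 6.47 and 6.05 at 5 µM and 6.12, 6.20 and 6.14 at 10 µM. Its 10 µM arrays lay above the vehicle arrays, but neither dose passed, with 0.49 ± 0.25 at 5 µM against vehicle (adjusted p = 0.182) and 0.63 ± 0.25 with the higher dose (adjusted p = 0.0880).

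SNHG12 was split in the same way. Its probe set 228990_at read 9.16, 9.25 and 9.55 at 0 µM, 9.77, 9.48 and 9.24 at 5 µM and 10.45, 9.87 and 10.38 at 10 µM. All 10 µM arrays were above all vehicle arrays, and it rose by 0.91 ± 0.20 against vehicle (adjusted p = 0.0130). Probe set 223774_at read 10.43, 10.62 and 10.53 at 0 µM, 9.86, 9.46 and 9.39 at 5 µM and 10.06, 9.73 and 10.07 at 10 µM. It was below the vehicle on every array with 5-Aza and fell by 0.57 ± 0.16 at 10 µM (adjusted p = 0.0291). The brightest probe set, 223773_s_at, lay between them at 0.16. The direction for SNHG12 at 10 µM against vehicle therefore depended on the probe set.

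The disagreement was tested within arrays, as the difference between a probe set and the brightest probe set of its gene, for 10235 such pairs (limma, chosen after seeing the data). At 10 µM against vehicle 4.25% of the pairs differed. Of the 8 pairs of host genes 5 did: GAS5 228238_at by 1.38 ± 0.27 (adjusted p = 0.0362), GAS5 227517_s_at by 1.10 ± 0.24 (adjusted p = 0.0473), GAS5 1560402_at by 1.46 ± 0.25 (adjusted p = 0.0278), SNHG12 228990_at by 0.76 ± 0.13 (adjusted p = 0.0308) and SNHG12 223774_at by -0.73 ± 0.12 (adjusted p = 0.0269). At 5 µM against vehicle GAS5 1560402_at (1.56 ± 0.25, adjusted p = 0.0366) and SNHG12 228990_at (0.82 ± 0.13, adjusted p = 0.0383) differed, where 0.791% of the pairs did. At 0 µM the probe sets GAS5 1560402_at and SNHG7 1552729_at lay near the floor, where a fall as large as that of the brightest probe set could not be measured. Without them 4 of 6 pairs differed at 10 µM against vehicle and 1 of 6 at 5 µM. All GAS5 pairs share the reference 224741_x_at and all SNHG12 pairs share 223773_s_at, so pairs of 1 gene are not independent. The host gene pairs that differed were all of GAS5 or SNHG12. Between the drug doses none of the 8 pairs passed, and 0.0195% of all pairs did. Probe sets of 1 gene can lie at different distances from its 3′ end, and whether that distance, splicing or matches to other transcripts gave the disagreement was not tested.

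The other genes with several probe sets were SNHG7 and SNHG16. The dim SNHG7 probe set 1552729_at read 5.40, 5.59 and 6.22 at 0 µM, 6.27, 6.04 and 5.20 at 5 µM and 6.82, 5.15 and 6.38 at 10 µM. These groups overlapped throughout, and its difference at 5 µM against vehicle was 0.10 with a 95% interval of -0.91 to 1.11. The SNHG16 probe sets had -0.42 and -0.41 at 5 µM against vehicle, and neither passed over the probe sets (adjusted p = 0.0704 and 0.127).

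**Figure D4:**
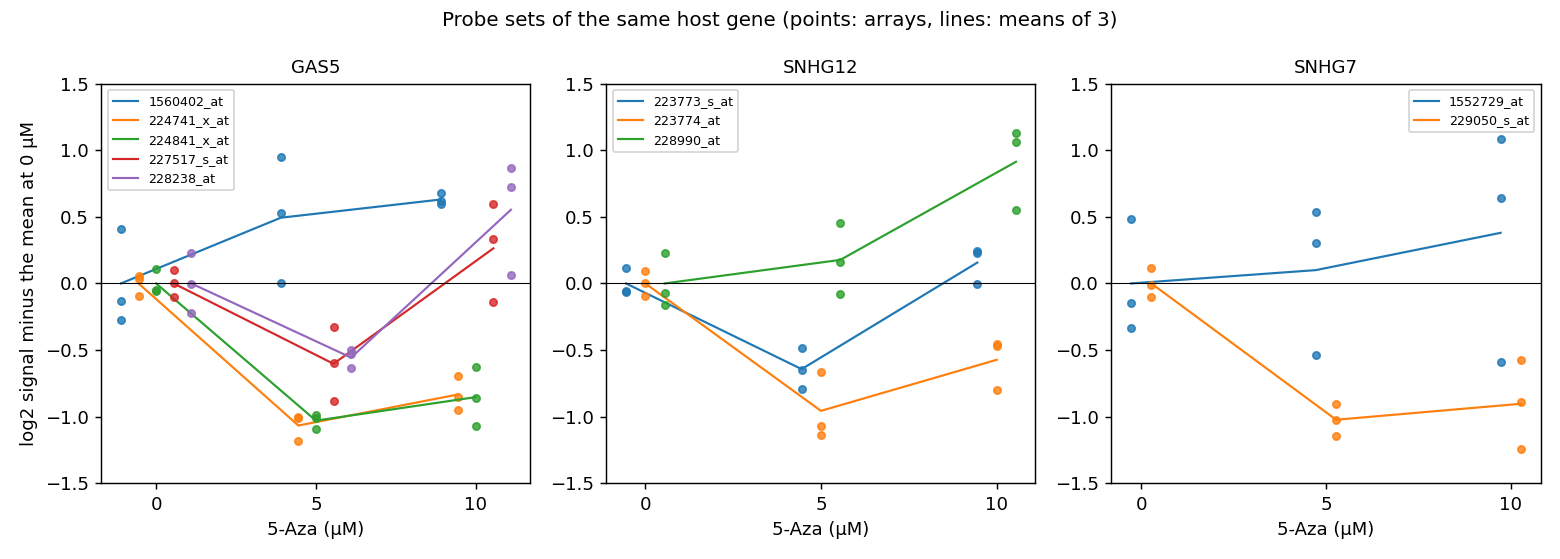
The log2 signal minus its mean at 0 µM (y axis) of every probe set of GAS5, SNHG12 and SNHG7 is shown for 0, 5 and 10 µM 5-Aza (x axis). Points are arrays and lines join means of 3. At 10 µM the GAS5 probe sets 224741_x_at and 224841_x_at are at -0.83 and -0.855 while 228238_at is at 0.55, and for SNHG12 223774_at is at -0.57 while 228990_at is at 0.91.

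Counts of this and the following lists stand beside the shares of all tested genes. At 5 µM against vehicle 13.5% fell and 20.2% rose. At 10 µM 8.9% fell and 6.98% rose against 5 µM, and 13.4% fell and 19.8% rose against vehicle. Of 20 other noncoding snoRNA host genes 14 were on the array and 11 were tested. At 5 µM against vehicle 6 of them fell and none rose, with a median of -0.72. SNHG29 had the largest fall, -1.98 ± 0.22 (adjusted p = 0.000275), followed by EPB41L4A-AS1 (-1.34 ± 0.16, adjusted p = 0.000404) and SNHG32 (-1.04 ± 0.11, adjusted p = 0.00022). At 10 µM against vehicle 5 fell and 1 rose, SNHG29 by -1.68 ± 0.22 and EPB41L4A-AS1 by -1.28 ± 0.16. The gene that rose was SNHG10, by 1.01 ± 0.17 (adjusted p = 0.00318). SNHG17 and SNHG11 were the 2 that rose at 10 µM against 5 µM, by 0.73 ± 0.15 (adjusted p = 0.0176) and 0.45 ± 0.11 (adjusted p = 0.0288). The median of the list at 10 µM against vehicle was 0.05, and -0.24 after quantile normalization.

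**Figure D5:**
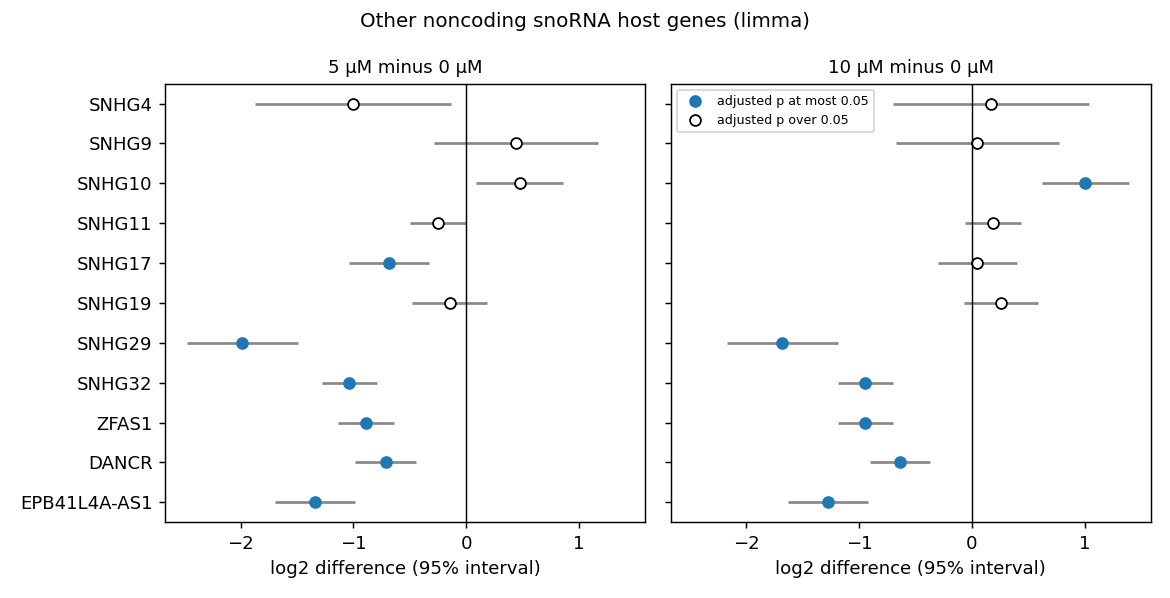
Log2 differences (x axis) of the 11 tested noncoding snoRNA host genes outside the 10 (rows) for 5 µM minus 0 µM and 10 µM minus 0 µM, with 95% intervals from limma. Filled points have an adjusted p of at most 0.05. SNHG29 is the lowest in both panels, at -1.98 and -1.68, and SNHG10 is the filled point to the right of 0 at 10 µM.

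Protein-coding genes also carry snoRNAs. The list used here held no cytosolic ribosomal protein gene except RPSA, which was not tested. Its counts therefore do not stand for all protein-coding hosts. Ribosomal protein genes are counted separately below, and EEF1B2, EEF2 and TPT1 are counted again among the other TOP mRNAs. Of 21 tested genes in the list, 6 fell and none rose at 5 µM against vehicle, with a median of -0.25. EEF1B2, a translation elongation factor, had -0.98 ± 0.15 (adjusted p = 0.00174) and TOMM20, a mitochondrial import receptor, had -0.65 ± 0.12 (adjusted p = 0.00400). At 10 µM against 5 µM 2 rose and 1 fell, where 6.98% and 8.9% of all tested genes did. WDR43, which acts in making the small ribosomal subunit, rose by 0.80 ± 0.13 (adjusted p = 0.00715) and TNPO2, a nuclear import receptor, by 0.57 ± 0.10 (adjusted p = 0.00972). Against vehicle, 8 fell and 2 rose at 10 µM, among them IPO7, an importin, with -0.70 ± 0.12 (adjusted p = 0.00308) and TNPO2 with 0.70 ± 0.10 (adjusted p = 0.0016), and after quantile normalization 3 fell and 3 rose.

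For genes whose mRNAs start with a TOP tract the count of falls depended on the scaling. Of 68 tested cytosolic ribosomal protein genes, 61 fell and none rose at 5 µM against vehicle (median -0.40), none of them past 2-fold. RPL3 had -0.97 ± 0.12 (adjusted p = 0.000449) and RPL34 had -0.71 ± 0.10 (adjusted p = 0.000819). After quantile normalization 9 fell and 1 rose, with a median of -0.09. At 10 µM against vehicle 52 fell and 1 rose (median -0.39), and after quantile normalization 14 fell and 1 rose. RPL10L, a retrogene copy of RPL10, was the ribosomal protein gene past 2-fold, with -1.16 ± 0.27 at 10 µM against 5 µM (adjusted p = 0.0224) and -1.35 ± 0.27 at 10 µM against vehicle (adjusted p = 0.0063). Of 20 other TOP mRNAs 13 fell and 1 rose at 5 µM, with a median of -0.50, and 9 fell and 1 rose after quantile normalization. EIF4B, a translation initiation factor, fell by 1.27 ± 0.11 (adjusted p = 6.87e-05) and rose by 0.68 ± 0.11 at 10 µM against 5 µM (adjusted p = 0.00673). EIF3L, an initiation factor subunit, had 0.44 ± 0.13 between the doses (adjusted p = 0.0585). The gene that rose at 5 µM was VIM, an intermediate filament gene (adjusted p = 0.00900). Its signal was below the floor on the 3 vehicle arrays (2.23, 4.47 and 1.07) and 5.85, 5.87 and 5.63 at 5 µM, so against the floor of the vehicle arrays it was at least 1.55-fold higher.

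Genes of the proteins that package and process snoRNAs were examined next. Of 19 tested, 8 fell and none rose at 5 µM against vehicle, and 5 fell and 1 rose after quantile normalization. FBL, the methyltransferase of C/D box snoRNPs, had -1.09 ± 0.13 (adjusted p = 0.000404) and RUVBL1, an ATPase of their assembly, had -1.144 ± 0.115 (adjusted p = 0.000179). At 10 µM against 5 µM 3 rose, among them NOP58, a core C/D box protein, by 0.69 ± 0.09 (adjusted p = 0.00438). Against vehicle, 4 fell and 2 rose at 10 µM (median -0.075), among them FBL with -0.82 ± 0.13 (adjusted p = 0.0024) and SHQ1, an H/ACA assembly factor, with 0.69 ± 0.13 (adjusted p = 0.00551).

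Among 33 genes of rRNA transcription and processing, 10 fell and 1 rose at 5 µM against vehicle, and 8 rose and none fell at 10 µM against 5 µM. Against vehicle, 3 fell and 6 rose at 10 µM (median 0.04). After quantile normalization 3 fell and 7 rose (median 0.02), and with equal array medians 6 fell and 2 rose (median -0.235). NOB1, a nuclease of 18S rRNA maturation, fell by 1.139 ± 0.117 at 5 µM (adjusted p = 0.000205), and WDR12, a factor of the large ribosomal subunit, rose by 0.66 ± 0.10 between the doses (adjusted p = 0.00527), as did UTP20, of the small subunit processome, by 0.67 ± 0.11 (adjusted p = 0.00667). PWP2, of the same complex, rose by 0.85 ± 0.15 at 10 µM against vehicle (adjusted p = 0.00356). Of 15 nonsense-mediated decay and exon junction factors, 1 fell at 5 µM against vehicle, where 13.5% of all tested genes did. It was RBM8A with -0.49 ± 0.09 (adjusted p = 0.00451), and the median of the list was 0.03, or -0.04 after quantile normalization. SMG8, a regulator of the decay kinase, had -0.31 ± 0.12 there (adjusted p = 0.0862) and rose by 0.50 ± 0.12 at 10 µM against 5 µM (adjusted p = 0.0314), where the release factor GSPT1 had -0.34 ± 0.12 (adjusted p = 0.0916). SMG6, the decay endonuclease, rose by 0.71 ± 0.15 at 10 µM against vehicle (adjusted p = 0.00831), and RBM8A fell by 0.50 ± 0.09 (adjusted p = 0.00488).

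MYC, a transcription factor known to drive ribosome production, fell by 1.19 ± 0.13 at 5 µM against vehicle (adjusted p = 0.000232), rose by 0.81 ± 0.13 at 10 µM against 5 µM (adjusted p = 0.00644) and was 0.39 ± 0.13 below vehicle at 10 µM on the log2 scale (adjusted p = 0.0445). DNMT1 encodes the main DNA methyltransferase of replicating cells, a target of 5-Aza. Its difference at 5 µM was 0.27 ± 0.10 (adjusted p = 0.0645), and with the higher dose it rose by 0.67 ± 0.10 over vehicle (adjusted p = 0.00198).

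The pattern of GAS5 was taken from its brightest probe set, 224741_x_at. Its probe sets 228238_at and 227517_s_at followed another course at 10 µM. The genes with the pattern closest to GAS5 were C15orf40, PPIC (a peptidyl-prolyl isomerase), CHPT1 (a phosphatidylcholine synthesis enzyme), ELFN1-AS1 and IVNS1ABP. Their Pearson correlations were 0.994 to 0.989 over the 9 arrays, among 10408 genes above the floor on all arrays. All values share arrays and scaling factors, so these are descriptions. Of the host genes SNHG8 (0.974) and SNHG7 (0.971) were closest to GAS5, SNHG12 (0.472) and SNHG3 (0.199) farthest.

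Of the 8 host genes with a promoter in the table, 3 had the start of a tested protein-coding gene within 1000 bases, looked at after seeing the data. SLC3A2, an amino acid transporter subunit whose start lies 224 bases from that of SNHG1 on the opposite strand, fell by 0.44 ± 0.14 at 5 µM (adjusted p = 0.0411) and by 0.46 ± 0.14 at 10 µM against vehicle (adjusted p = 0.0354). ZBTB37, 665 bases from GAS5 on the opposite strand, had 0.10 ± 0.26 and 0.09 ± 0.26 (adjusted p = 0.800 and 0.804). RCC1, 100 bases from SNHG3 on the same strand, had -0.21 ± 0.15 and -0.38 ± 0.15 (adjusted p = 0.307 and 0.0820).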

How the data were processed

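Total RNA of 9 HT-29 cultures was hybridised to 9 arrays, 3 per dose as the labels give it. The authors deposited log2 signals of 54675 probe sets. The submitters' notes name RMA and affy 1.14.2, but the numbers have the form of MAS 5.0 signals, since on each array the linear values have a 2% trimmed mean of 250.0 and the distributions differ between arrays. Such signals carry 1 scaling factor per array, are not quantile normalized, and are noisy where low. Array medians were 5.07 to 5.52. Probe sets with a missing value, 6 in all, were left out, and sequencing data were not used here.

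A probe set was given to a gene if the platform table lists that gene alone (41091 probe sets) or only with snoRNAs of its introns (96). Another 1705 list several genes, 11721 list none and 62 are controls. The probe set with the highest mean signal stood for its gene. Genes at or above the median of every array in at least 1 dose group entered a linear model with 1 mean per dose over the 9 arrays, with moderated two-sided tests (limma 3.58.1, R 4.3.3). Calls needed an adjusted p no higher than 0.05, or by the stricter rule also a change past 2-fold. The code was tested on simulated data. Figures were drawn with matplotlib 3.10.9.

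The 10 genes and the gene lists were chosen with earlier results of these data known. By rule, the text names those 10, MYC, DNMT1, from each list up to 4 genes past the stricter rule or else the 2 with the smallest p in each comparison, and the 5 genes that correlate best with GAS5. Neighbouring genes and the comparison of probe sets within a gene were added after the values were seen. Alternatives were no filter, a higher floor (60th percentile), other choices of probe sets, quantile normalization, equal array medians, fits of only 2 groups, a replicate block, the methods' t-test, trend and robust fits, array weights, raising low signals to the floor, the actin covariate and leaving out each array.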

Additional observations from a re-analysis of the deposited data

How the results depend on the processing

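At 5 µM against 0 µM, SNHG8, SNHG15 and SNHG5 were lower at an adjusted p of at most 0.05 in all 23 alternatives each. The 5 falls past 2-fold became 3 with a gene's probe sets averaged, without probe sets named x or s, after quantile normalization and with the actin covariate, and 3 to 5 with 1 array left out. With the actin covariate 4 host genes and 742 genes were called at 5 µM against 0 µM, in place of 9 and 3971. At 10 µM against 5 µM 0 host genes and 12 genes were called, in place of 3 and 1873. At 10 µM against 0 µM 0 host genes (0 past 2-fold) and 0 genes were called, in place of 7 and 3919, and SNHG16 turned to 0.042. That fit spends 1 more degree of freedom on a covariate that follows the dose. Probe sets with 1 gene only keep GAS5 alone among the 10, by construction, and gave 0 calls in each comparison, with GAS5 at 0.49 (5 µM against 0 µM) and 0.63 (10 µM against 0 µM). Without x and s probe sets, SNHG7 was at 0.10 (5 µM against 0 µM) and 0.38 (10 µM against 0 µM), GAS5 at 0.55 and SNHG12 at -0.57 (10 µM against 0 µM), and 1 host gene, not 0, was past 2-fold at 10 µM against 5 µM. Shifting the arrays to equal medians moved the median of all genes to -0.22 at 5 µM and -0.23 at 10 µM against 0 µM. The falls and rises of all genes were then 3188 and 1360 in place of 1588 and 2383 at 5 µM, and 3171 and 1105 in place of 1585 and 2334 at 10 µM, all 10 host genes fell at 5 µM (median -1.12), 4 were past 2-fold at 10 µM against 0 µM, and 1179 genes were called between the drug doses. After quantile normalization 1 was past 2-fold at 10 µM against 0 µM. The methods' t-test called 1 host gene and 448 genes at 10 µM against 5 µM, and 4 and 1521 at 10 µM against 0 µM. Array weights, whose estimation stopped before convergence, called 6 host genes (5 higher, 1 lower) and 5969 genes at 10 µM against 5 µM, and 7044 genes with 1 host gene higher at 10 µM against 0 µM. No filter gave 526 and 2344 genes, and means of probe sets 1141 and 2577, at 10 µM against 5 µM and 0 µM. Leaving out 1 array gave 531 to 2518 and 2476 to 4914 genes, and without 10 µM replicates 2 and 3, chosen after seeing the data, 831 genes at 10 µM against 5 µM. The cause of these shifts was not tested.

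Same-numbered arrays showed no clear pairing. Their deviations from group means correlated at -0.09 to 0.18, and those of differently numbered arrays at -0.248 to 0.225. Such values cannot show whether cultures with the same number were handled together. With the replicate number as a block, 8 host genes were lower at 5 µM against 0 µM (SNHG16 lost, adjusted p = 0.0716), 3 higher at 10 µM against 5 µM and 7 lower at 10 µM against 0 µM, and 3765, 1480 and 3715 genes were called. Among the host genes' probe sets the dim ones of SNHG7 (1552729_at) and GAS5 (1560402_at), near the array median, had the widest intervals.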
